A study of Schizosaccharomyces pombe with 15 samples.

Results

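The comparison described here sets tagged U6 small nuclear RNA that carries the change C36A against tagged wild-type U6, both in fission yeast (Schizosaccharomyces pombe) that lacks mpn1. The tested strain, mpn1Δ tU6-C36A, combines the mpn1 deletion with the altered tagged U6, and its counterpart, mpn1Δ tU6wt, combines the same deletion with the unaltered tagged U6. Both also make endogenous U6 from its own gene, which lacks tag and change, so that its ends show how far an unaltered U6 differs between the same 2 strains. In mpn1Δ tU6-C36A this endogenous U6 comes from cells that also hold the C36A form. It was amplified with a different primer from that for tagged U6. These are 2 of the 15 samples of the series, chosen by their titles, and the file of tagged U6 was chosen by the word exogenous in its name. Further sources of comparison were tU6-C36A and tU6-wt, the tagged strains that keep mpn1, and 3 untagged strains without mpn1, namely mpn1Δ, mpn1Δrrp6Δ and cid14Δmpn1Δ. All cells grew in rich liquid medium at 30 °C, and all RNA of these strains was treated with polynucleotide kinase before an adapter was ligated to the 3′ ends, U6 was amplified and the products were sequenced. The labels do not give the promoter or the position of the tagged gene, nor the number of clones, and each strain is 1 library.

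Transcripts of U6, an RNA of the spliceosome that is made by RNA polymerase III, end in a run of Us where the polymerase stops. The exoribonuclease Mpn1, known in humans as USB1, trims that run after transcription, and cells that lack it are known to have U6 with As after the Us. The nuclear exosome and the TRAMP complex, which adds short A tails to RNAs marked for decay, are the best known users of such tails. The ACAGAGA sequence of U6 pairs with the 5′ splice site of pre-mRNAs during splicing, and C36 is its second base, counted from 1 at the first base of U6.

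In RefSeq's ASM294v3 assembly the U6 gene, snu6, spans bases 2562276 to 2562419 of chromosome I on the minus strand, and C36 falls in exon 1 at position 2562384. The sequences below show the place of the change and the encoded end of the RNA, which the measured ends are read against. In the first, capitals mark ACAGAGA at bases 35 to 41 of exon 1 (chrI:2562374-2562419). In the second, the capital marks the base changed by C36A. In the third, capitals mark the encoded run of 9 Ts that follows the annotated gene by 1 base (chrI:2562256-2562295). In the fourth, the primer for tagged U6 as the labels give it, capitals mark the 7 bases that follow the 18 shared with the primer for U6.
snu6 exon 1: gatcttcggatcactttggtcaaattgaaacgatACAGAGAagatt
snu6 exon 1 with C36A: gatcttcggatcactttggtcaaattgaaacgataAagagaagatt
end of snu6 and downstream: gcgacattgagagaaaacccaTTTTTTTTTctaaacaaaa
primer for tagged U6: gatcttcggatcactttgATCTTCG

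Ends were listed in DNA letters, T for U, from the first base after the constant part of U6. A plain end consists of Us alone, and an A-tailed end has Us followed by As alone. The 6 ends that the comparison turns on are given here with the A tail in capitals. The first 3 are A-tailed ends, and the other 3 are plain ends.
6 Us and 1 A: ttttttA
5 Us and 1 A: tttttA
3 Us and 1 A: tttA
5 Us: ttttt
4 Us: tttt
3 Us: ttt

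Tagged U6 gave 1007849 reads with an end sequence in mpn1Δ tU6-C36A and 953194 in mpn1Δ tU6wt, and endogenous U6 gave 595654 and 408281. Plain and A-tailed ends together made up most reads of each file. No molecular identifiers mark the PCR products, so that the exact (Clopper-Pearson) 95% intervals given with shares cover counting error only. With 1 library per strain no test was possible, and a difference was called only past a size limit. For a share the limit was 5 percentage points together with 1.5 times, and for a mean U run it was 0.5 nt. The files hold ends alone, so neither the tag nor C36A can be read in them.

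On average, tagged U6 with C36A had its A tails on longer U runs and its plain ends on shorter ones than tagged wild-type U6. No difference between strains in the U run shares of this paragraph and the next passed the size limit. Among A-tailed reads of tagged U6, 52.0% had 6 Us in mpn1Δ tU6-C36A and 38.7% in mpn1Δ tU6wt. Those with 5 Us made up 38.9% and 47.2%. The commonest A-tailed run was therefore 6 Us with C36A and 5 Us in the wild-type form. Runs of 1 to 4 Us held 4.39% of A-tailed reads with C36A, against 9.28% in the wild-type form. The A-tailed runs of 7 Us were alike in size, at 4.70% and 4.69%.

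Plain ends of tagged U6 moved the other way. Runs of 3 Us made up 6.91% of plain reads in mpn1Δ tU6-C36A and 2.77% in mpn1Δ tU6wt, and runs of 4 Us 13.2% and 8.31%. Plain runs of 6 Us were less common with C36A, at 33.9% against 41.8%, while runs of 5 Us were close, at 35.5% and 34.4%. Plain runs of 1 U went against the other short runs, at 0.485% with C36A and 1.83% in the wild-type form.

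**Figure D1:**
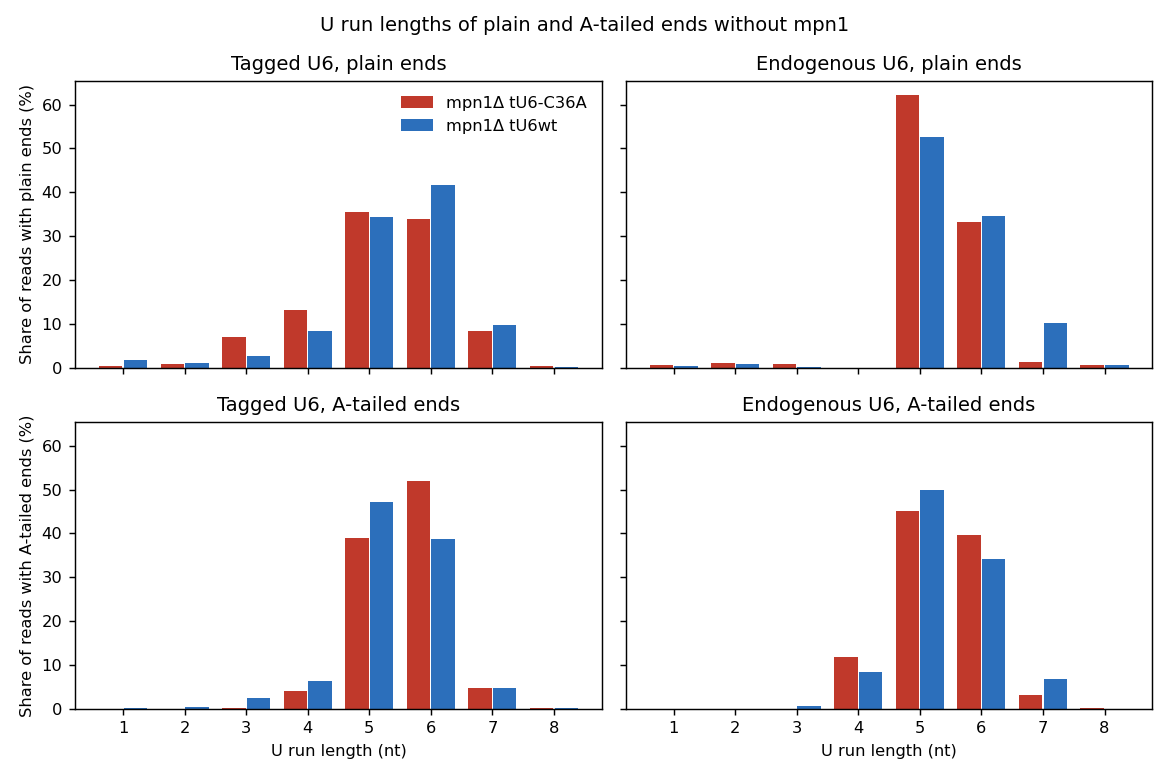
U run length in nt (x axis) against the share of plain reads (top) or A-tailed reads (bottom) in percent, for tagged U6 (left) and endogenous U6 (right) of mpn1Δ tU6-C36A (red) and mpn1Δ tU6wt (blue), 1 library each. In tagged U6 the tallest A-tailed bar stands at 6 Us with C36A (52.0%) and at 5 Us in the wild-type form (47.2%), and plain ends of 4 Us are nearly missing from both endogenous files.

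The mean U run summarised both shifts. It was 5.57 nt (SD over reads 0.671) for A-tailed ends of tagged U6 with C36A and 5.36 nt (0.829) in the wild-type form, a difference of 0.213 nt. For plain ends it was 5.21 nt (1.13) and 5.37 nt (1.12), a difference of -0.165 nt. Over plain and A-tailed ends together the means were 5.42 and 5.36 nt. Within mpn1Δ tU6-C36A the A-tailed ends thus had the longer runs, whereas in mpn1Δ tU6wt the 2 kinds of end had nearly the same mean. Neither difference between strains reached the limit of 0.5 nt. Within runs of 5 to 7 Us alone, the differences kept their signs at 0.111 nt for A-tailed and -0.0595 nt for plain ends, and both signs turned, to -0.0388 and 1.00 nt, when every distinct end weighed the same.

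Endogenous U6 of the same strains shared the sign of the difference in the plain mean but not that in the A-tailed mean. Plain ends averaged 5.31 nt in mpn1Δ tU6-C36A and 5.53 nt in mpn1Δ tU6wt, a difference of -0.222 nt that exceeded the one in tagged U6. The plain runs that differed were not the same in the 2 forms. Runs of 7 Us made up 1.33% of endogenous plain reads in mpn1Δ tU6-C36A and 10.3% in mpn1Δ tU6wt, past the limit for a share. In tagged U6 they made up 8.44% and 9.67%. Endogenous A-tailed ends averaged 5.34 and 5.38 nt, a difference of -0.0414 nt. The tagged difference minus the endogenous difference was 0.0568 nt for plain ends and 0.254 nt for A-tailed ends. Plain ends of 4 Us were nearly missing from the endogenous files, at 0.0291% and 0.0440% of plain reads, so the plain means cover different ends in the 2 forms. The value for plain ends was 0.117 nt without the ends of 4 and 19 nt, 0.137 nt within 5 to 7 Us and 0.0195 nt with a last C after the Us left off, and that for A-tailed ends was 0.203, 0.115 and 0.254 nt.

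The balance between 6 and 5 Us, taken as the ratio of their reads, was shifted in endogenous U6 as well. Among A-tailed reads of tagged U6 the ratio was 1.34 with C36A and 0.821 in the wild-type form, 1.63 times as high. In endogenous U6 it was 0.880 in mpn1Δ tU6-C36A and 0.683 in mpn1Δ tU6wt, 1.29 times as high. For plain reads the ratio was lower in both forms, 0.787 times that of mpn1Δ tU6wt in tagged and 0.808 times in endogenous U6. Beside these runs, runs of 4 Us held 11.9% of endogenous A-tailed reads in mpn1Δ tU6-C36A and 8.40% in mpn1Δ tU6wt, and runs of 7 Us held 3.10% and 6.87%, so that the means stayed close.

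Among the 5 libraries without mpn1, endogenous A-tailed ends averaged 5.21 ± 0.163 nt (SD, n = 5 strains, which differ in other genes), with the lowest at 5.03 and the highest at 5.38 nt. Tagged U6 with C36A lay above that range, at 5.57 nt, and tagged wild-type U6 lay within it. For plain ends the range was 3.98 to 5.53 nt, and both tagged forms lay inside it. The lowest plain means were those of the untagged strains, at 4.61 nt in mpn1Δ, 4.41 nt in mpn1Δrrp6Δ and 3.98 nt in cid14Δmpn1Δ.

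The A-tailed share depended on the length of the U run, and C36A differed most from the wild-type sequence at 3 Us. Of tagged reads with 3 Us, 5.63% were A-tailed in mpn1Δ tU6-C36A (95% interval 5.36 to 5.90) and 63.5% in mpn1Δ tU6wt (62.8 to 64.1). At 4 Us the shares were 31.5% and 60.3%, and at 2 Us 5.34% and 40.0%. At 1 U they were 6.64% and 18.8%. All 4 differences passed the size limit, and C36A was the lower in each.

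At the commoner lengths the tagged forms were closer. At 5 Us, 62.2% of tagged reads were A-tailed with C36A (62.0 to 62.4) and 73.3% in the wild-type form (73.1 to 73.4). At 6 Us the order was reversed, with 69.7% (69.6 to 69.9) and 65.0% (64.8 to 65.1). At 7 Us the shares were 45.6% and 49.3%. None of these 3 differences passed the limit. With C36A the A-tailed share was highest at 6 Us and in the wild-type form at 5 Us.

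Rare long runs were also less often A-tailed with C36A. At 8 Us, 20.6% of 1871 tagged reads were A-tailed in mpn1Δ tU6-C36A and 62.5% of 1343 in mpn1Δ tU6wt, past the limit. In endogenous U6 the order at 8 Us was the opposite, with 24.9% of 1933 reads and 10.9% of 818. At 9 Us, the full length of the encoded run, 3 of 441 reads carried an A tail with C36A and 8 of 79 in the wild-type form.

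**Figure D2:**
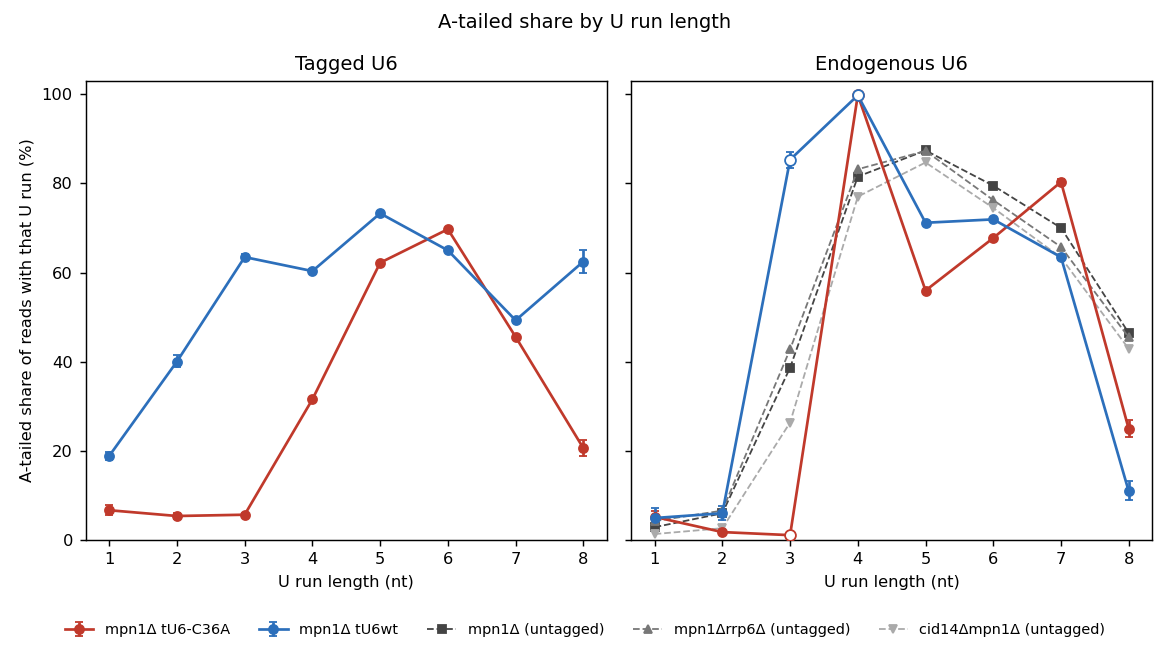
U run length in nt (x axis) against the percentage of reads with that run that are A-tailed, with exact 95% intervals for the tagged strains, in tagged U6 (left) and endogenous U6 (right, with 3 untagged strains without mpn1 dashed). In tagged U6 the curve of C36A stays below 7% from 1 to 3 Us, where that of the wild-type sequence climbs to 63.5%. Open circles mark runs of 3 and 4 Us in the endogenous files of the tagged strains, which list few ends of 4 nt.

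The endogenous files serve as a control at 5 Us and more and, on few A-tailed reads, at 1 and 2 Us, but not at 3 or 4. They listed few ends of 4 nt, which made up 0.0114% of endogenous reads in mpn1Δ tU6-C36A and 0.0193% in mpn1Δ tU6wt, against 5.20% and 4.10% of tagged reads. The end of 3 Us with 1 A and the plain end of 4 Us both have that length, as do the A-tailed ends of 2 Us with 2 As and of 1 U with 3 As. The A-tailed share at 3 Us was then 1.04% and 85.3% in endogenous U6, where 1432 of the 1461 A-tailed reads of mpn1Δ tU6wt carried 2 or more As, and at 4 Us it was 99.9% and 99.8%.

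At 5 Us endogenous U6 showed a difference of the same sign as tagged U6, with 56.0% A-tailed in mpn1Δ tU6-C36A and 71.2% in mpn1Δ tU6wt. The endogenous difference, -15.2 points, exceeded that of tagged U6, -11.1 points. At 6 Us the signs were opposite, at -4.18 points in endogenous and 4.74 points in tagged U6. They were opposite at 7 Us too, where endogenous U6 was A-tailed in 80.3% and 63.5% of reads. At 1 and 2 Us the endogenous differences were 0.257 and -4.23 points, against -12.2 and -34.7 points in tagged U6, on 532 to 2314 endogenous reads. At 1 U, 63 of the 68 endogenous A-tailed reads of mpn1Δ tU6-C36A carried 2 or more As, against 1 of 26 in mpn1Δ tU6wt. The endogenous end of 1 U and 1 A had 5 reads in mpn1Δ tU6-C36A and 25 in mpn1Δ tU6wt.

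The 3 untagged strains without mpn1 list ends of every length and give a scale for the A-tailed share without a tag. It was 26.3% to 42.8% at 3 Us, 77.0% to 83.2% at 4 Us and 84.7% to 87.4% at 5 Us. At 6 Us it was 74.5% to 79.5% and at 7 Us 63.4% to 70.0%. Tagged U6 with C36A lay below the range at each length from 3 to 7 Us. Tagged wild-type U6 lay above the range at 3 Us and below it from 4 to 7 Us. At 2 Us the untagged strains had 2.60% to 6.55%, a range that held C36A (5.34%) and lay far below tagged wild-type U6 (40.0%). At 1 U they had 1.29% to 4.20%, below both C36A (6.64%) and tagged wild-type U6 (18.8%). At 8 Us their 42.9% to 46.4% lay above C36A (20.6%) and below tagged wild-type U6 (62.5%).

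Summed over all lengths, 57.1% of tagged reads were A-tailed in mpn1Δ tU6-C36A and 62.1% in mpn1Δ tU6wt, which is -5.00 points (counting interval -5.14 to -4.86) and under the limit of 1.5 times. In endogenous U6 the difference was -6.57 points (-6.76 to -6.39), so that the tagged difference minus its control was 1.57 points. The endogenous files list few ends of 4 nt, and this value depended on them: it was 3.45 points with ends of 4 and 19 nt left out of both forms and 6.93 points within 5 to 7 Us. The tagged difference was smaller than the SD of 6.11 points among the 5 libraries without mpn1. Of plain and A-tailed reads of tagged U6, 60.0% were A-tailed with C36A and 66.7% in the wild-type form, and the A-tailed shares of C36A applied to the U runs of the wild-type form gave 59.7%.

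Among single ends, the end with 6 Us and 1 A was 5.12 points higher with C36A than in the wild-type form in tagged U6, and that with 5 Us and 1 A was 7.08 points lower. In endogenous U6 these ends differed by -0.605 and -6.51 points. The 3-U end held 2.63% of tagged reads in mpn1Δ tU6-C36A and 0.861% in mpn1Δ tU6wt, 3.05 times as much. In endogenous U6 that end was higher in mpn1Δ tU6-C36A too, at 0.303% against 0.0615%, 4.93 times as much. The 4-U end held 5.03% and 2.58% of tagged reads, and the end with 3 Us and 1 A 0.156% and 1.49%. Both have 4 nt, a length that is nearly missing from endogenous U6.

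Of the 48 ends with at least 0.1% of reads in either tagged file, 79.2% differed by at least 1.5 times between the strains. In endogenous U6 the same held for 76.7% of 30 ends. The plain ends past that fold in tagged U6 were 4 of 8 and the A-tailed ends 6 of 11, which are smaller shares than that of all ends. Ends with any other tail were past it in 28 of 29 cases.

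A tails were short in both strains. A tail of 1 A was carried by 93.0% of A-tailed reads of tagged U6 in mpn1Δ tU6-C36A and by 94.7% in mpn1Δ tU6wt, and the mean tail was 1.08 and 1.06 As. Tails of 2 As held 6.62% (6.56 to 6.69) and 4.99% (4.94 to 5.05), and tails of 3 or more 0.384% and 0.317%. Endogenous U6 had the larger difference in tails of 2 As, with 9.43% in mpn1Δ tU6-C36A and 4.76% in mpn1Δ tU6wt, while its tails of 3 or more As went the other way, at 1.34% and 1.60%. Tails of 2 or more As were thus more common in mpn1Δ tU6-C36A than in mpn1Δ tU6wt by 1.70 points in tagged U6 and by 4.41 points in endogenous U6. Neither difference passed the size limit. Both tagged shares, 7.01% and 5.31%, lay inside the endogenous range of the 5 libraries without mpn1, 4.56% to 10.8%. With every distinct end weighed the same, the tagged difference was -6.99 points.

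**Figure D3:**
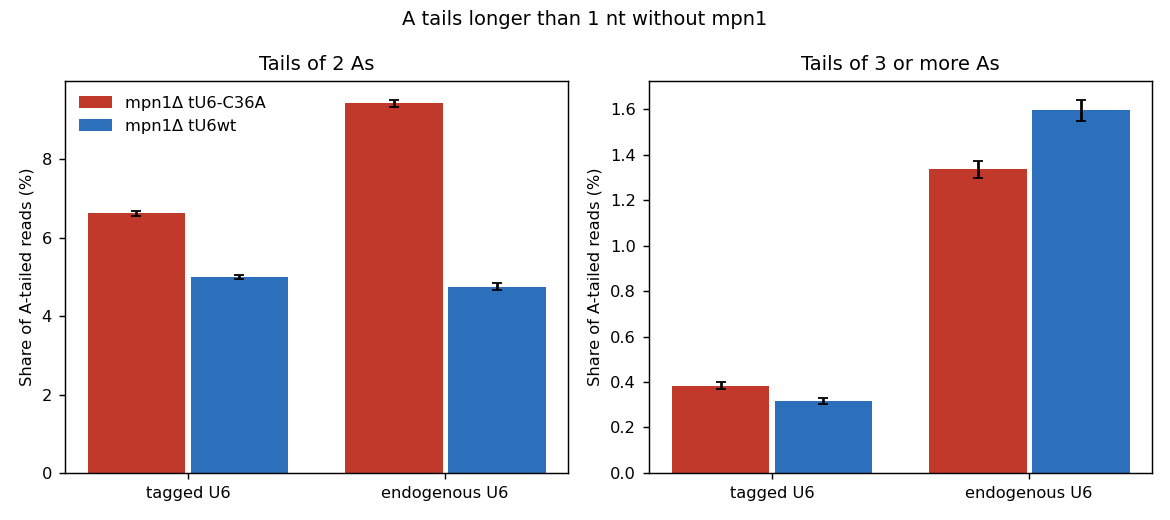
Share of A-tailed reads in percent with tails of 2 As (left) and of 3 or more As (right, on its own scale) in tagged and endogenous U6 of mpn1Δ tU6-C36A (red) and mpn1Δ tU6wt (blue), 1 library each, with exact 95% intervals. Tails of 2 As are more common in mpn1Δ tU6-C36A in both forms, and the larger gap is in endogenous U6 (9.43% against 4.76%).

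The longer tails sat on the common U runs. Of tagged reads, the end with 5 Us and 2 As held 1.71% with C36A and 1.78% in the wild-type form, and that with 6 Us and 2 As 1.72% and 1.18%. The end with 7 Us and 2 As held 2029 reads with C36A and 394 in the wild-type form, 4.87 times the share. In endogenous U6 the ends of 2 As had 1.29 times the share at 5 Us, 2.98 times at 6 Us and 0.543 times at 7 Us. Those at 5 and 7 Us thus differed in the other direction than in tagged U6. Of tagged A-tailed reads at 5 Us, 8.27% and 6.31% had 2 or more As, and at 6 Us 5.95% and 5.22%. Endogenous U6 had 11.5% and 8.67% at 5 Us and 10.4% and 3.24% at 6 Us. Tails of 5 or more As were rare in tagged U6, with 43 reads in mpn1Δ tU6-C36A and 719 in mpn1Δ tU6wt.

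The tagged strains that keep mpn1 are separate libraries and gave the same signs for both mean U runs of tagged U6. A-tailed ends averaged 4.76 nt in tU6-C36A and 4.55 nt in tU6-wt, a difference of 0.215 nt, and plain ends 4.93 and 5.10 nt, a difference of -0.163 nt. The plain ends differed in where the shift lay. With mpn1, plain runs of 6 Us were more common with C36A, at 30.7% of plain reads in tU6-C36A and 20.1% in tU6-wt, and the ratio of 6 to 5 Us was 2.42 times as high, against 0.787 times without mpn1. Within 5 to 7 Us the plain means were 5.49 and 5.25 nt, so the lower mean with C36A came with runs of 1 to 3 Us, which held 15.5% and 4.27% of plain reads. In endogenous U6 of the strains with mpn1 the signs of both mean differences were opposite to those in tagged U6, at -0.359 nt for A-tailed and 0.0976 nt for plain ends. These endogenous files also list few ends of 4 nt, at 0.0206% of reads in tU6-C36A and 0.0399% in tU6-wt. In tagged U6 such ends made up 5.01% and 4.51%, so the means cover different ends in the 2 forms. Runs of 4 Us held 54.2% and 15.6% of the endogenous A-tailed reads. At 3 Us, 3.62% of tagged reads were A-tailed with C36A and 23.4% in the wild-type form, again lower with C36A. The same order held at 2 Us, with 3.10% and 10.3%. At 1, 4, 5 and 6 Us, however, the A-tailed share was higher with C36A when mpn1 was present, by 8.57, 14.9, 7.34 and 5.49 points. At 1 U this was 11.5% against 2.92%, past the limit and opposite in sign to the difference without mpn1. Of these A-tailed reads at 1 U, 2188 of 2725 in tU6-C36A and 204 of 258 in tU6-wt carried 2 or more As. With 2 pairs of libraries no test of the shared signs was possible.

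**Figure D4:**
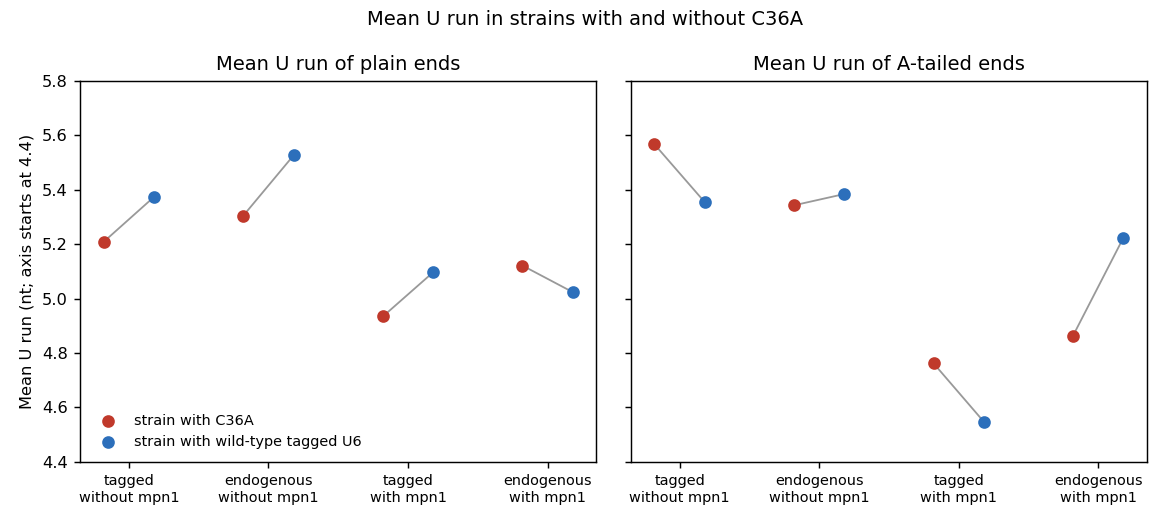
Mean U run in nt (y axis, from 4.4) of plain ends (left) and A-tailed ends (right) in the strain with C36A (red) and its counterpart with wild-type tagged U6 (blue), joined by a line, for tagged and endogenous U6 without and with mpn1, 1 library per point. All endogenous files shown list few ends of 4 nt. In tagged U6 the red point is the higher one for A-tailed ends (by 0.213 and 0.215 nt) and the lower one for plain ends in both settings, although plain runs of 6 Us were more common with C36A only where mpn1 was present (30.7% against 20.1%; without mpn1, 33.9% against 41.8%).

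The number of molecules behind these reads is not known. The tagged files held 1277 distinct ends in mpn1Δ tU6-C36A and 1558 in mpn1Δ tU6wt. Ends with a tail of 10 nt or more that was not As alone reached up to 4028 reads each with C36A and 2741 in the wild-type form. Copies of 1 molecule cannot be told from separate molecules, at any U run. Runs of 1 to 3 Us had 31946 plain and 1915 A-tailed reads with C36A, against 16733 and 17597 in the wild-type form.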

How the data were processed

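Total RNA was ligated to a 3′ adapter, reverse transcribed and amplified with primers for U6 or tagged U6, per the labels' protocols. The deposited files list counts: the number of reads and the end sequence on each line, with no normalization. The submitters' processing notes name 2 tools, CASAVA 1.8.2 and cutadapt, without saying what each did. Not given in the sources used here are the genome build, the read filters and the way endogenous reads were parted from tagged ones. The line with no sequence, 0.150% to 0.875% of the reads of the 4 files compared, was left out of shares.

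Ends were sorted into plain (Us alone), A-tailed (Us, then As alone) and other ends, and shares are of all reads with a sequence. Members, classes and size limits were chosen with earlier results of these data known. The ends considered were plain ends and ends with 1 A for runs of 1 to 9 Us, ends with at least 1% in a tagged file, the 5 largest rises and falls, and the 5 commonest ends with 2 or more As; ratios of 6 to 5 Us and long tails were added after their values were seen. Intervals of shares are exact (Clopper-Pearson), at 95%, and intervals of differences combine their half-widths. The A-tailed share and the mean A-tailed U run were recovered in simulated draws from the tagged counts of mpn1Δ tU6wt. The simulation used the same class rule, so it could not test class assignment. The alternatives were 8 planned ones and 1 chosen after seeing the data. Coordinates come from the exons of snu6 in RefSeq's annotation of ASM294v3, and the labels' primer was matched to the start of exon 1. Values were computed in Python 3.11.15 with SciPy 1.17.1 and NumPy 2.4.6, and figures drawn with Matplotlib 3.10.9.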

Additional observations from a re-analysis of the deposited data

Results flagged for a closer look

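The A-tailed share of tagged U6 differed between the strain with C36A and its counterpart with opposite signs in the 2 settings. From single libraries, the difference was -5.00 points without mpn1 and 4.80 points with it. Endogenous U6 of the same strains differed with the same signs, by -6.57 and 1.59 points. Tagged minus endogenous was therefore positive in both settings, at 1.57 points without mpn1 and 3.21 points with it. The endogenous files of both settings list few ends of 4 nt, so these values cover different ends in tagged and endogenous U6. The difference between the settings was not tested.

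Without mpn1, the mean U run of A-tailed ends differed by 0.213 nt in tagged U6 and by -0.0414 nt in endogenous U6, C36A strain minus wild-type tagged strain. The difference between these values was not tested, and both lie under the limit of 0.5 nt.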

How the results depend on the processing

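The 12 values are the differences between mpn1Δ tU6-C36A and mpn1Δ tU6wt in 4 quantities, for tagged U6, for endogenous U6 and for tagged minus endogenous. Below, they are given in that order where they moved beyond counting error. No paired analysis was possible because each strain is 1 library and the labels give no replicate numbers. Leaving out ends with fewer than 10 reads or with more than 9 Us moved none of the 12.
With ends of 4 and 19 nt left out, the A-tailed share differed by -3.14 points in tagged U6 and 3.45 in tagged minus endogenous, the plain mean by -0.105 and 0.117 nt, the A-tailed mean by 0.161 and 0.203 nt, and tails of 2 or more As by 1.60 points in tagged U6. With at least 4 Us, the A-tailed share differed by -3.58 points in tagged U6 and 2.95 in tagged minus endogenous, the plain mean by -0.135 nt in tagged and -0.194 nt in endogenous U6, the A-tailed mean by 0.142, -0.0538 and 0.196 nt, and tails of 2 or more As by 1.58, 4.88 and -3.29 points. With 5 to 7 Us, chosen after seeing the data, the A-tailed share differed by -1.25, -8.18 and 6.93 points, the plain mean by -0.0595, -0.196 and 0.137 nt, the A-tailed mean by 0.111, -0.00418 and 0.115 nt, and tails of 2 or more As by 1.44 points in tagged U6 and -3.11 in tagged minus endogenous. With the line of no sequence counted as 0 Us, the A-tailed share differed by -4.55, -6.81 and 2.26 points and the plain mean by -0.0392, -0.273 and 0.233 nt. With a last C after Us left off, the plain mean differed by -0.184 nt in endogenous U6 and 0.0195 nt in tagged minus endogenous.
All 8 reversals came from 2 settings. Where every distinct end seen at least 2 times had a weight of 1, the A-tailed share differed by -0.135, 0.352 and -0.487 points, the plain mean by 1.00, 0 and 1.00 nt, the A-tailed mean by -0.0388, -0.318 and 0.279 nt, and tails of 2 or more As by -6.99, 0 and -6.99 points; this setting weighs all ends alike and describes their variety. With the plain and 1-A ends of 5 and 6 Us left out, the A-tailed share differed by -10.6, 13.7 and -24.3 points, the plain mean by -0.242, -2.00 and 1.76 nt, the A-tailed mean by 0.572, -0.306 and 0.879 nt, and tails of 2 or more As by 17.5, 14.2 and 3.33 points, on the minority of reads that this leaves.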

Other observations

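Ends with other tails were less common with C36A in tagged U6, at 4.73% of reads in mpn1Δ tU6-C36A and 6.75% in mpn1Δ tU6wt, and the same order held in endogenous U6, at 3.18% and 5.53%. A tails followed by Us held 0.250% and 0.709% of tagged reads, against 0.367% and 0.333% of endogenous reads. Short tails that start with a G held 0.579% of tagged reads in mpn1Δ tU6-C36A and 1.11% in mpn1Δ tU6wt, where 1 end held 8388 of the 10623 reads. The line with no sequence held 0.167% of all tagged reads in mpn1Δ tU6-C36A and 0.875% in mpn1Δ tU6wt, and 0.552% and 0.150% of endogenous reads. These ends were chosen after their values were seen, and none of the differences was tested.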
